A study of Mus musculus with 20 samples.

Results

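The genes described here are the histone genes of the mouse histone clusters, taken as every row of the deposited expression tables whose name begins with Hist1h, Hist2h, Hist3h or Hist4h. There were 68 such genes among the 23361 rows of each table. RNAseq was performed by the authors on ileum, the distal small intestine, and on bone marrow-derived macrophages, which are phagocytes grown in culture from marrow precursors. Each tissue was represented by 5 libraries from Gpr35+/+ (wild type) and 5 libraries from Gpr35-/- (GPR35 knockout) mice, 20 in all, with no treatment. GPR35 is a G protein-coupled receptor without an agreed ligand, found on gut epithelium and on macrophages, and the knockout was global, so that every cell type of the ileum carried it. The mice were C57BL/6, with wild-type littermates as controls, and the labels give no age for the sequenced mice. Nothing in the labels says whether the 5 macrophage libraries of a genotype came from different animals, and the p-values therefore cover no more than the variation among the libraries at hand, which may be technical.

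Most mRNAs end in a poly(A) tail. The mRNAs of replication-dependent histones do not. They end in a short stem-loop, which the stem-loop binding protein (Slbp) holds, and they are made in S phase, when newly copied DNA has to be packed into nucleosomes. Core histones H2A, H2B, H3 and H4 form the nucleosome, and H1 is the linker histone that sits on the DNA between nucleosomes. Some cluster genes also give a longer mRNA with a poly(A) tail, which is found in cells that have stopped dividing. The libraries here were made with a TruSeq stranded mRNA kit, which captures RNA by its poly(A) tail, so the stem-loop form is caught poorly, and the FPKM of these genes mixes whatever remains of that form with the polyadenylated one. In tissue samples, fewer cells of a type and less RNA per cell cannot be told apart.

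By family, the 68 genes comprised 6 for H1, 18 for H2A, 19 for H2B, 12 for H3 and 13 for H4. On GRCm38 (GENCODE release M21 annotation) 54 lie in the Hist1 cluster on chromosome 13 between 21715763 and 23934851, and 10 lie in the Hist2 cluster on chromosome 3 between 96219865 and 96270132. A further 3 are Hist3 genes on chromosome 11 (58948920 to 58956830), and Hist4h4 stands alone on chromosome 6 (136801553 to 136804415). Hist3h2bb-ps is named as a pseudogene. A list of genes known to give polyadenylated forms held 11 of the 68 (Hist1h1c, Hist1h2ac, Hist1h2bc, Hist1h2be, Hist1h2bk, Hist2h2aa1, Hist2h2aa2, Hist2h2be, Hist3h2a, Hist3h2ba and Hist4h4) and is called the polyadenylated list below. The other 57 genes were treated as a group of their own.

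The stem-loop can be read in the annotated transcripts. The pattern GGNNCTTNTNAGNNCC, on the transcribed strand, occurred in the longest annotated transcript of 45 of the 68 genes, against 90 of 21810 other protein-coding genes (0.413%). The stem-loops of members that the results turn on are shown here because they mark the 3' end that lacks a poly(A) tail. Capitals mark the 16-base loop motif, and 5 transcript bases are given on each side.
Hist1h4c: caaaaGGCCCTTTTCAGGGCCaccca
Hist2h4: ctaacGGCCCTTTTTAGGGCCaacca
Hist1h4h: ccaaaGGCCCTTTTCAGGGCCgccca
Hist1h3e: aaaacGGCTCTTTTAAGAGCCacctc
Hist1h1e: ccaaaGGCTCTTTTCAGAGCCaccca
Hist1h1c: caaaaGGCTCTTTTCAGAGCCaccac
Hist3h2a: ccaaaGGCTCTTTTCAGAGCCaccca
Hist1h4i: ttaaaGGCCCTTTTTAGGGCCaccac
The commonest loop was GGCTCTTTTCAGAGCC, found in 25 genes of H1, H2A, H2B and H3. The form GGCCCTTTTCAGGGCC was found in 7 genes, and the 4 H4 genes shown here differ from the H1 and H2A genes in the base pairs of the stem. Steady and variable genes carried the same letters, since the loop of Hist1h1e was identical to that of Hist1h1c. The length of sequence after the loop differed between genes. The annotated transcript ended within 60 bases of the loop in 21 genes and ran on past it in 24. These 24 included steady genes, such as Hist1h1c with 840 further bases and Hist3h2a with 1643. They also included variable genes, such as Hist1h1e with 1153 further bases and Hist2h4 with 1257. In the remaining 23 genes no loop was annotated. A poly(A) signal (AATAAA or ATTAAA) stood in the last 40 bases of 16 transcripts.

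RefSeq gave a promoter, 300 bases around the start and mostly before it, for 61 of the 68 genes. Of these, CCAAT was present in 52 (85.2%) against 37.4% of all 32851 promoters of the same length, and TATAAA was present in 35 (57.4%) against 13.6%. CCAAT, the letters bound by NF-Y, was found in every promoter of the H1, H2A, H2B and H3 genes but in 3 of 12 for H4. The octamer ATTTGCAT, bound by Oct-1 in H2B promoters, occurred in 7 of 17 H2A and 7 of 16 H2B promoters and in none of the others, against 1.74% of all promoters. AAACACA, a box known from H1 promoters, occurred in 5 of 6 H1 promoters, against 7.18% of all. It also occurred in 2 of 17 H2A and 2 of 16 H2B promoters and in none for H3 or H4. Both strands were searched, and each motif was counted separately, overlaps included. The promoters of the 3 members with the smallest p in the ileum are printed as examples of an H1, an H3 and an H4 gene, 5' to 3' on the strand of the gene (GRCm38.p6), with these motifs in capitals (ATTGG is CCAAT on the opposite strand).
Hist1h1e, chr13:23622509-23622808, minus strand: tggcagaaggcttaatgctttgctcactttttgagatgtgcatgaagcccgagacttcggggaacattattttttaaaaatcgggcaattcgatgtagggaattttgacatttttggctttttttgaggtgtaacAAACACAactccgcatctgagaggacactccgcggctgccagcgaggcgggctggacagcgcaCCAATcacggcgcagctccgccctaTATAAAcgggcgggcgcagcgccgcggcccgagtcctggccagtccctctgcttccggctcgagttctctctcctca
Hist1h3e, chr13:23562336-23562635, minus strand: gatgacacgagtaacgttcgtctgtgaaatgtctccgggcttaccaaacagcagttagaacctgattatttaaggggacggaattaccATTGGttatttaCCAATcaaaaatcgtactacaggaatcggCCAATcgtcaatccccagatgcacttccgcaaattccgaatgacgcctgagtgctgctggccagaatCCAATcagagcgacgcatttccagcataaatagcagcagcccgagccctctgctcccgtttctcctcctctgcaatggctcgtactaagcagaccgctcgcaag
Hist1h4c, chr13:23698409-23698708, minus strand: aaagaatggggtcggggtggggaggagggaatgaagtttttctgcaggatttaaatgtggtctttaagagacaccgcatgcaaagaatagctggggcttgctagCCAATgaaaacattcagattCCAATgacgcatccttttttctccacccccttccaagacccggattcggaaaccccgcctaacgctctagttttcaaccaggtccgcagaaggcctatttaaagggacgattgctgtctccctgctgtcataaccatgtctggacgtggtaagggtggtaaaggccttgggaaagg
The Hist1h1e promoter held the H1 box, CCAAT and TATAAA in that order, and those of Hist1h3e and Hist1h4c held several CCAAT boxes but no TATAAA. Hist1h4c was thus among the few H4 genes with CCAAT.

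Before the histone results, the labels were checked. Gpr35 had 2.49 to 3.85 FPKM in Gpr35+/+ and 0.00970 to 0.0408 FPKM in Gpr35-/- ileum, and 2.51 to 3.32 against 0.0952 to 0.132 FPKM in macrophages. Fabp6, the ileal bile acid-binding protein, had 10117 to 34321 FPKM in the ileum, and the macrophage markers Csf1r and Cd68 had 508 to 658 and 1411 to 1644 FPKM in macrophages. Of the marker lists, Fabp2 and Anpep (enterocyte) were listed at 0 in every ileum library and Lyz2 (macrophage) at 0 in every macrophage library, so a row at 0 in these tables need not mean that the RNA was absent. Read totals are not known here. From the step in FPKM that a single read makes in low genes, the depth relative to library 1 of Gpr35+/+ was 1.00 to 1.86 in Gpr35+/+ and 1.57 to 2.52 in Gpr35-/- ileum, and 0.782 to 1.02 over the 10 macrophage libraries.

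Levels of the cluster histone genes spanned a wide range. Hist1h2bc, an H2B gene (chr13:23684199-23692908), and Hist1h1c, the H1.2 linker histone (chr13:23738808-23740367), made up 63.0% to 91.7% of the summed FPKM of all 68 genes in the ileum and 44.0% to 68.6% in macrophages. Next in the ileum by mean level came Hist3h2a (H2A, chr11:58954685-58956830), Hist1h4i (H4, chr13:22040636-22041362), Hist1h4d, Hist1h4c, Hist1h4h and Hist2h3c1 (H3). In macrophages the order was Hist1h1c, Hist1h2bc, Hist3h2a, Hist2h2be, Hist1h4i, Hist2h3c1, Hist1h2bg and Hist2h4. FPKM is scaled by transcript length, so these levels can be set side by side, but where the length used includes a polyadenylated 3' end that the stem-loop form lacks, the level per RNA is understated.

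In the ileum 59 of the 68 genes were above 0 in at least 1 library, and in macrophages 57 were. The same 9 genes were listed at 0 in all 20 libraries, namely Hist1h2aa, Hist1h2ad, Hist1h2ao, Hist1h2ap, Hist1h2ba, Hist1h2bq, Hist1h2br, Hist1h4n and Hist2h2aa1. Of these, 4 share at least 90% of their 50-base stretches, the read length, with another gene. Sequence shared with other genes is common in this family. Over all members, 34 of the 68 share at least 50% of their 50-base stretches with transcripts of other genes on either strand, and 12 share at least 90%. These are not all copies of histone genes. Hist2h2bb and Hist2h3b share most with the record Gm20628 (100% each), and Hist3h2a with Trim17 (31.5%). Hist1h2ao shares 93.5% with Hist1h2ap, Hist2h2aa2, Hist2h3b and Hist2h3c1 share 100% with another annotated record, and only 4 genes share none, among them Hist1h1a, Hist1h1b and Hist2h2be. How the authors' counting treated reads that match several genes was not given in the sources used here, so a level of such a gene may be split or set to 0.

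In the ileum the steady members did not differ by genotype beyond the spread between libraries. Hist1h2bc had 181, 129, 132, 199 and 137 FPKM in Gpr35+/+ libraries 1 to 5 and 152, 163, 151, 157 and 145 FPKM in Gpr35-/- libraries 1 to 5. The Gpr35-/- values lay inside the range of Gpr35+/+, and the log2 change was 0.00 (standard error 0.13). For Hist1h1c the means were 97.0 ± 25.6 and 96.6 ± 23.1 FPKM (SD, n = 5 each, wild type first). Hist3h2a had 5.77 ± 0.681 against 5.41 ± 0.826 FPKM, and Hist1h4i had 4.69 ± 1.23 against 4.72 ± 1.15 FPKM (SD, n = 5 each). Hist2h2be, an H2B gene with a long polyadenylated transcript, had 0.828 to 1.24 FPKM in Gpr35+/+ and 0.918 to 1.32 FPKM in Gpr35-/-, and the H3 gene Hist2h3c1 had 1.73 to 2.23 and 1.34 to 2.10 FPKM. For each of these the genotypes overlapped.

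A second set of members, low in level, varied widely and was lower on average in Gpr35-/- ileum. Hist1h4c, an H4 gene (chr13:23697635-23698454), had 5.83, 9.69, 3.83, 0.626 and 5.17 FPKM in Gpr35+/+ libraries 1 to 5, and 1.39, 0.690, 0.655, 1.49 and 1.11 FPKM in Gpr35-/- libraries 1 to 5. All Gpr35+/+ libraries but library 4 lay above all Gpr35-/- libraries, and library 4 lay below all of them. The log2 change was -1.55 (standard error 0.49, p = 0.0099, adjusted p = 0.999 from limma, exact permutation p = 0.048). Hist1h1e, the H1.4 linker histone (chr13:23620629-23622558), had 1.71, 3.52, 1.65, 0.713 and 1.69 FPKM in Gpr35+/+ and 0.661, 0.310, 0.477, 1.16 and 0.721 FPKM in Gpr35-/-. Its log2 change was -0.95 (standard error 0.29, p = 0.0065, adjusted p = 0.999 from limma, exact permutation p = 0.024), the smallest unadjusted p of the family in this tissue. Again library 4 of Gpr35+/+ fell among the Gpr35-/- values and library 2 was highest.

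In other members with small unadjusted p the order of libraries was alike in part. Hist1h3e, an H3 gene (chr13:23561534-23562369), had 1.25, 2.93, 0.877, 0.502 and 1.84 FPKM in Gpr35+/+ and 0.618, 0.185, 0, 0.794 and 0.395 FPKM in Gpr35-/- (log2 change -1.09, standard error 0.35, exact permutation p = 0.032). Hist2h4, the H4 gene of the Hist2 cluster (chr3:96261682-96263311), had 2.23, 4.19, 2.51, 0.239 and 1.32 FPKM against 0.883, 0.264, 0, 0.284 and 0.848 FPKM (log2 change -1.31, standard error 0.46, exact permutation p = 0.048). Hist1h4h, a further H4 gene (chr13:23531050-23531519), had 1.88, 4.93, 2.21, 1.14 and 4.64 FPKM against 1.21, 0.837, 1.45, 1.05 and 1.79 FPKM (log2 change -0.84, standard error 0.32, exact permutation p = 0.056). In all 3 genes Gpr35+/+ library 2 was the highest of the 10 and Gpr35+/+ library 4 the lowest of its genotype, while the other libraries changed places from gene to gene, and the genotypes overlapped. Hist1h4b, an H4 gene with a log2 change of -1.10 (standard error 0.47), was highest in Gpr35+/+ library 5 instead (2.30 FPKM, against 1.69 FPKM in library 2). Hist1h4d, the highest of the H4 genes in mean level in Gpr35+/+ ileum, ranged from 1.25 to 15.6 FPKM in Gpr35+/+ and from 0.327 to 3.71 FPKM in Gpr35-/- (log2 change -1.31, standard error 0.62).

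Hist1h1a, the H1.1 linker histone (chr13:23763666-23764406), had 0.832, 3.09, 1.89, 0.319 and 1.05 FPKM in Gpr35+/+ and 0.847, 0.281, 0.400, 0.227 and 0.452 FPKM in Gpr35-/-. The Gpr35-/- mean was 0.442 FPKM against 1.44 FPKM, with libraries 2 and 3 of Gpr35+/+ above all others. The log2 change was -0.89 (standard error 0.35, p = 0.026, adjusted p = 0.999 from limma), and the exact permutation p was 0.063. The difference did not pass the test across genes.

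**Figure D1:**
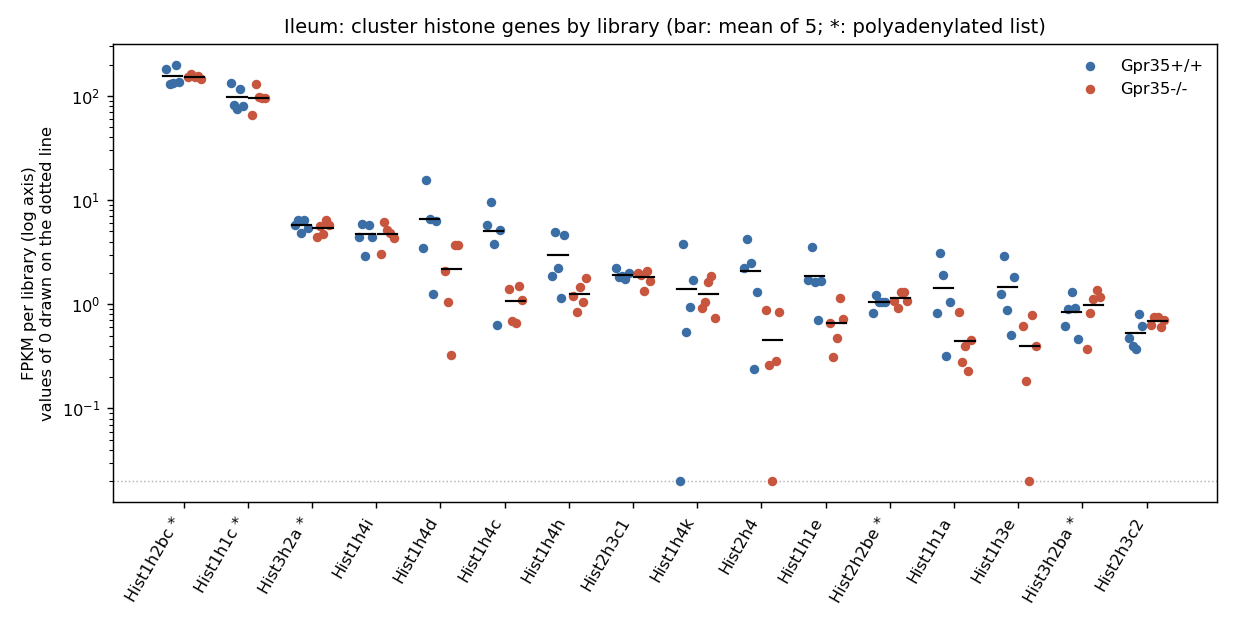
FPKM per library (vertical log axis) of the ileum members described, 5 Gpr35+/+ (blue) and 5 Gpr35-/- libraries (red) for each gene, with horizontal bars at the genotype means and values of 0 drawn on the dotted line. Hist1h2bc and Hist1h1c sit far above the rest with close means (156 and 154, and 97.0 and 96.6 FPKM), while low members such as Hist1h4c (means 5.03 and 1.07 FPKM) spread widely and the genotypes overlap in every gene.

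Members with an estimate above 0 in the ileum were few and their changes small. The largest were Hist2h3c2, an H3 gene, at 0.21 (standard error 0.13), Hist1h4k at 0.19 (0.48) and Hist3h2ba, an H2B gene, at 0.13 (0.23) on the log2 scale. None had an unadjusted p under 0.05.

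Over all members, 25 passed the filter of 0.5 FPKM in at least 5 libraries in the ileum, and 0 of the 25 passed the test (limma, Benjamini-Hochberg adjusted p under 0.05 over 11574 genes). Of all genes tested, 5 passed (0.0432%), 2 of them higher (0.0173%) and 3 lower (0.0259%) in Gpr35-/-. At an unadjusted p under 0.05 there were 7 of the 25 members (Hist1h1a, Hist1h1e, Hist1h3e, Hist1h4b, Hist1h4c, Hist1h4h and Hist2h4), all with estimates below 0, while 4.34% of all genes had such a p, 2.52% with an estimate below 0 and 1.81% above. Estimates below 0 were found for 19 of the 25 members against 45.6% of all genes, and their median log2 change was -0.38 against 0.01 for all genes. The filter bears on these counts. Of the 25 members, 10 were over the filter in more Gpr35+/+ than Gpr35-/- libraries and 2 in more Gpr35-/- libraries, and 34 members above 0 were not tested. Without a filter, 46 of the 59 members above 0 had estimates below 0 (49.3% of all such rows), 15 of them with an unadjusted p under 0.05, 1 further member had such a p above 0, and 0 passed, while 4.55% of the 18446 genes of that fit had such a p. By exact permutation, 8 of the 59 had p under 0.05, all lower in Gpr35-/-, against 4.12% of the 18451 rows above 0, 2.31% lower and 1.81% higher. In none of the 68 genes did every Gpr35-/- library lie on the same side of every Gpr35+/+ library, where 0.449% of all tested genes were lower and 0.406% higher in this way.

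The split by known polyadenylated forms ran along the same line only in part. Of the polyadenylated list, 6 of 11 were tested, with 3 estimates on each side of 0 and a median of 0.00. Of the other 57 genes, 19 were tested, with 16 estimates below 0, a median of -0.80 and all 7 of the unadjusted p under 0.05. Without the filter, all 49 above 0 had a median of -0.40, with 41 below 0. The steady genes Hist1h4i, Hist2h3c1, Hist2h3c2 and Hist1h3d also lie outside the list, the last an H3 gene named after its values were seen. Their log2 changes were 0.01, -0.08, 0.21 and -0.03. By family, the tested members had medians of -0.85 for H1 (4 tested), -0.07 for H2A (2), -0.15 for H2B (6), -0.05 for H3 (4) and -0.84 for H4 (9). By transcript end, the median was -0.73 for the 5 tested genes whose transcript ends at the loop, -0.40 for the 6 without an annotated loop and -0.08 for the 14 that run on past it. These classes include genes of the polyadenylated list. Outside the list, the mean summed FPKM of Gpr35-/- was 44.4% of that of Gpr35+/+ for the 18 genes that end at the loop. It was 41.7% for the 21 without an annotated loop and 49.6% for the 18 that run on past it. These are descriptions of small groups and were not tested against each other.

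**Figure D2:**
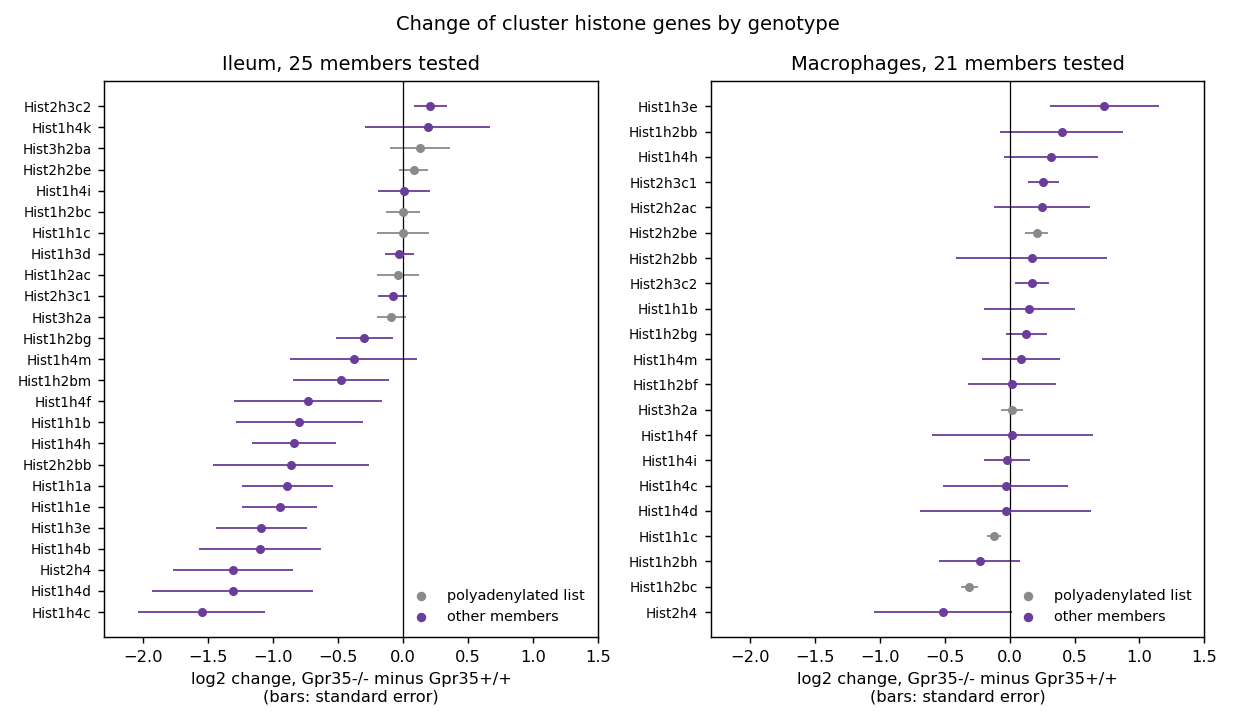
Log2 change (Gpr35-/- minus Gpr35+/+, horizontal axis) with its standard error for each member tested, 25 in ileum (left) and 21 in macrophages (right), grey for the polyadenylated list and purple for the other members. Purple members reach down to -1.55 in the ileum and lie on both sides of 0 in macrophages, while grey members stay between -0.31 and 0.21.

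Summed over all 68 genes, the ileum means were 316 ± 43.9 FPKM for Gpr35+/+ and 284 ± 24.7 FPKM for Gpr35-/- (SD, n = 5 each). The 11 genes of the polyadenylated list summed to 262 ± 56.1 and 259 ± 28.3 FPKM (SD, n = 5 each). The other 57 genes summed to 38.7, 113, 43.5, 21.4 and 55.2 FPKM in Gpr35+/+ libraries 1 to 5 and to 28.1, 17.9, 20.3, 29.6 and 31.4 FPKM in Gpr35-/- libraries 1 to 5. Library 2 of Gpr35+/+ was far above the rest and library 4 was among the lowest. The Gpr35-/- mean of this sum was 46.8% of the Gpr35+/+ mean, and 64.1% without Gpr35+/+ library 2. Of the 49 such genes above 0, 35 had their highest level in that library. In its absence 4 of 25 members had an unadjusted p under 0.05 (5.43% of all genes in that fit), and the median change of the tested members was -0.17. Without Gpr35+/+ library 4, in contrast, 10 of 25 had such a p (4.44% of all genes) and Hist1h4c passed the adjusted threshold.

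The depth behind these values is small. Whole reads, taken as the lowest whole numbers that give a gene's FPKM values within 0.05 of a read, could be recovered for 48 of the 49 genes outside the polyadenylated list. The exception was Hist1h1e, so its read numbers are not known. It shares 32.0% of its 50-base stretches with other genes, 23.8% with Hist1h2be, whose annotated record overlaps it. Summed over the 48 genes, the reads came to 189, 657, 217, 256 and 258 in Gpr35+/+ libraries 1 to 5. In Gpr35-/- libraries 1 to 5 they came to 399, 226, 214, 258 and 260. Hist1h4c rested on 10, 23, 7, 2 and 9 reads in Gpr35+/+ and 6, 2, 2, 4 and 3 reads in Gpr35-/-. Counts this low carry a large counting error for any single member.

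The spread between libraries was itself larger than that of other genes of the same level in FPKM. The coefficient of variation over the 10 ileum libraries had a median of 93.5% over the 19 tested members outside the polyadenylated list and of 18.3% over the 5801 tested genes with a mean of 0.5 to 8 FPKM, a range that holds all 19. Of the 19, 14 lay above the 95th percentile of those genes. For the 6 tested genes of the polyadenylated list the median was 19.1% and the range 13.2% to 38.3%. Outside the list, Hist1h4i (23.9%), Hist2h3c1 (13.3%), Hist2h3c2 (24.8%) and Hist1h3d (14.1%) lay in that range too. The tested genes with a poly(A) signal near the transcript end had a median of 23.8% (8 genes) and those without had 93.5% (17 genes). In macrophages the same comparison gave 73.5% for 17 members outside the list and 11.7% for 4 members in it. There 15 of the 17 had a mean of 0.5 to 8 FPKM, and 11 of these lay above the 95th percentile of tested genes at this level (40.3%). Genes were matched on FPKM and not on reads, and at the same FPKM a shorter transcript has fewer reads. In the ileum Hist1h4b had 20 recovered reads in total at a mean of 0.918 FPKM. Hist2h2be, with its long transcript, had 638 at a mean of 1.09 FPKM. The part of read number in these spreads was not tested.

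**Figure D3:**
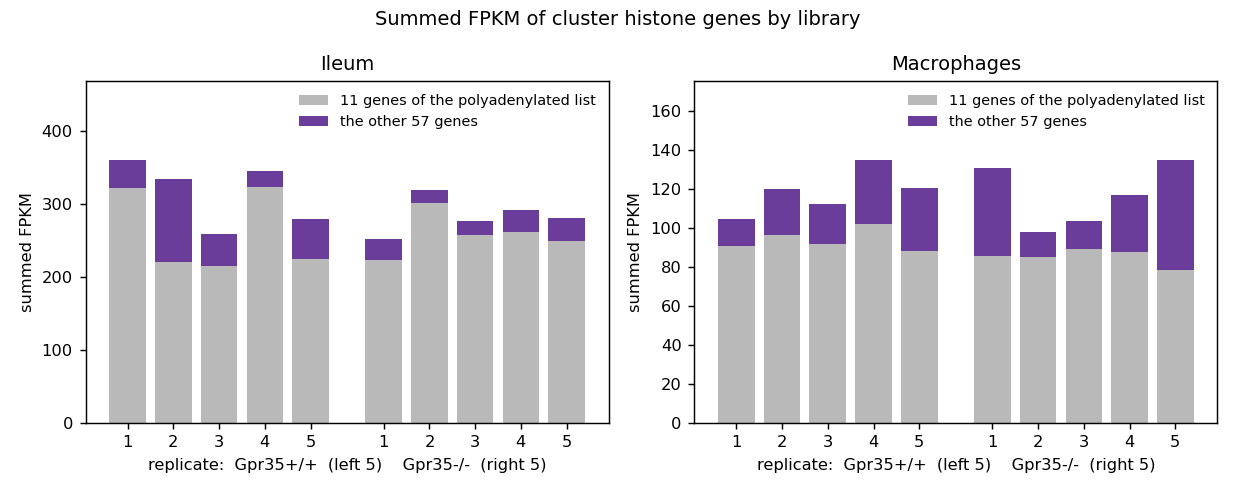
Summed FPKM (vertical axis, from 0) of the 11 genes of the polyadenylated list (grey) and of the other 57 genes (purple, stacked) in each library, ileum left and macrophages right, with 5 Gpr35+/+ bars and then 5 Gpr35-/- bars in each panel. In the ileum the purple part runs from 17.9 to 113 FPKM, highest in Gpr35+/+ library 2, and in macrophages from 12.9 to 56.6 FPKM, highest in Gpr35-/- library 5.

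Other RNAs listed as having no poly(A) tail, called tailless here, were compared. Some had their highest and lowest levels in the same libraries as these members, and others did not. Rmrp, the RNA of RNase MRP, had 976, 1062, 382, 22.6 and 468 FPKM in Gpr35+/+ and 174, 14.2, 51.9, 187 and 185 FPKM in Gpr35-/- ileum. As for the 57 histone genes, its highest level was in Gpr35+/+ library 2, its lowest in Gpr35-/- library 2, and Gpr35+/+ library 4 stood below the other 4 of its genotype. Together 13 tailless RNAs, none a histone gene, summed to 362 to 6217 FPKM in Gpr35+/+ and 769 to 1944 FPKM in Gpr35-/-, with its highest value in Gpr35+/+ library 2 and its lowest in Gpr35+/+ library 4, where the histone sum was lowest in Gpr35-/- library 2. Of the 12 of these RNAs above 0 in the ileum, 6 were highest in Gpr35+/+ library 2. Malat1 was among them but was lowest in Gpr35-/- library 1 (11.1 FPKM), and Neat1, a nuclear RNA of paraspeckles, was highest in Gpr35-/- library 2 (273 FPKM), the library with the lowest histone sum. Of the 9 tested, 8 had estimates below 0, 3 with an unadjusted p under 0.05, the smallest for Malat1 (log2 change -1.05, standard error 0.29), and 0 passed, the limma adjusted p of Malat1 being 0.999. Whether every form of Malat1 and Neat1 lacks a tail was not checked. Without them the other 11 RNAs summed to 162 to 5899 FPKM in Gpr35+/+ and 472 to 1798 FPKM in Gpr35-/- ileum. That sum was also highest in Gpr35+/+ library 2 and lowest in Gpr35+/+ library 4. The part of the 13 RNAs in the histone values was not tested.

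S-phase genes did not follow this order. A list of 29 S-phase genes summed to 125, 175, 143, 199 and 197 FPKM in Gpr35+/+ and 177, 133, 190, 157 and 174 FPKM in Gpr35-/- ileum. Library 4 of Gpr35+/+, with the lowest histone sum of its genotype, had the highest S-phase sum. Of the 27 S-phase genes tested, 16 had estimates above 0 with a median of 0.04, and 0 passed, with 1 unadjusted p under 0.05 (Ccne2, cyclin E2, log2 change 0.48, standard error 0.19). The 22 G2 and M phase genes were all tested, with 11 on each side of 0, 0 with an unadjusted p under 0.05 and 0 that passed. Markers of other cells that a piece of ileum can hold also differed between libraries. Summed FPKM ranged from 30.2 to 52.7 in Gpr35+/+ and 29.9 to 40.1 in Gpr35-/- for 7 stem and progenitor markers, from 23.8 to 46.5 and 34.8 to 37.8 for 6 germinal centre B cell markers, and from 22.3 to 92.1 and 27.3 to 86.1 for 7 B cell markers. For 7 smooth muscle markers the ranges were 9.13 to 45.5 and 5.00 to 31.1 FPKM. Gpr35+/+ libraries 5 and 2 were highest and Gpr35-/- library 2 lowest, the libraries that also held the highest and lowest histone sums. The stem and progenitor sum had the same highest and lowest libraries. A sum of 7 T cell markers was highest in Gpr35+/+ library 2 (78.0 FPKM) and lowest in Gpr35-/- library 2 (27.9 FPKM). The B cell sum was also highest in Gpr35+/+ library 2 but lowest in Gpr35+/+ library 1, and the germinal centre sum shared neither extreme. Of the markers tested, 7 of 7 for B cells had estimates above 0 (median 0.59), 3 of 4 for germinal centre cells were above 0 (1 with an unadjusted p under 0.05), 5 of 6 for stem and progenitor cells were below 0 (1 with such a p), and 6 of 6 for smooth muscle were below 0 (median -0.54, 1 with such a p). None passed. Every gene of the B cell, germinal centre, stem and progenitor and smooth muscle lists was above 0. The part of any of these marker lists in the histone values was not tested.

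**Figure D4:**
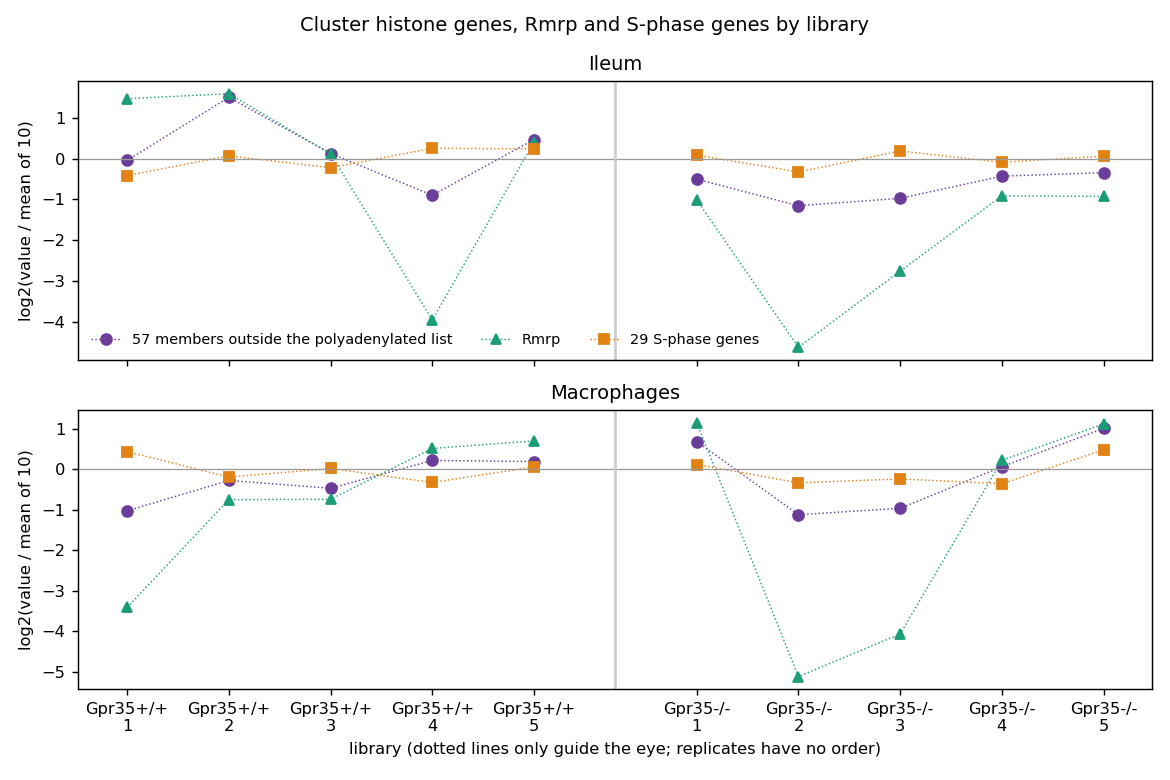
Log2 of the value over the mean of the 10 libraries of a tissue (vertical axis) for the sum of the 57 histone genes (purple), Rmrp (green) and the sum of 29 S-phase genes (orange), ileum above and macrophages below, one point per library. The histone sum and Rmrp share their highest and lowest library in the ileum, and Rmrp varies more, from 14.2 to 1062 FPKM.

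In macrophages the 2 highest members, Hist1h1c and Hist1h2bc, were lower on average in Gpr35-/-, and neither passed the test. Hist1h2bc had 30.1, 37.2, 34.8, 36.7 and 33.4 FPKM in Gpr35+/+ libraries 1 to 5 and 25.7, 27.1, 31.1, 27.6 and 26.4 FPKM in Gpr35-/- libraries 1 to 5. The genotypes overlapped by a single pair, Gpr35-/- library 3 lying above Gpr35+/+ library 1. The log2 change was -0.31 (standard error 0.066, p = 0.00065, adjusted p = 0.22 from limma, exact permutation p = 0.016), the smallest p of any member in either tissue, and it did not pass. Hist1h1c had 38.4 ± 2.72 against 35.3 ± 1.90 FPKM (SD, n = 5 each), with a change of -0.12 on the log2 scale (standard error 0.054, exact permutation p = 0.095). Hist2h2be had 4.19, 4.45, 3.85, 5.42 and 3.81 FPKM in Gpr35+/+ and 4.92, 5.57, 5.20, 5.19 and 4.49 FPKM in Gpr35-/-, a log2 change of 0.21 (standard error 0.089, exact permutation p = 0.071). These 3 steady genes of the polyadenylated list thus had small estimates in both directions, and Hist3h2a had 15.3 ± 1.42 and 15.6 ± 1.74 FPKM (SD, n = 5 each).

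The members with the smallest p in the ileum had estimates on both sides of 0 in macrophages, where Hist1h1e did not pass the filter. Hist1h4c had 0.279, 0.576, 0.321, 2.40 and 0.933 FPKM in Gpr35+/+ and 1.52, 0, 0.276, 0.956 and 1.78 FPKM in Gpr35-/- macrophages, with a log2 change of -0.03 (standard error 0.48). Its reads were 1, 2, 1, 7 and 3 against 5, 0, 1, 3 and 5. Hist1h3e had 0, 0.154, 0, 0.916 and 0.499 FPKM against 0.973, 0.582, 0, 1.70 and 1.14 FPKM (log2 change 0.73, standard error 0.42, exact permutation p = 0.15), and Hist1h4h ranged from 0.338 to 1.51 and from 0.220 to 2.21 FPKM. Hist2h4 was the lowest in estimate at -0.51 (standard error 0.53), with 0.213 to 3.67 and 0.244 to 2.32 FPKM. Hist1h2bh, an H2B gene, had an estimate of -0.23 (0.31), Hist2h3c1 of 0.26 (0.12), Hist2h3c2 of 0.17 (0.13) and Hist1h2bg of 0.13 (0.16). Hist1h1a did not pass the filter. It had 0.0568, 0.294, 0.262, 0.698 and 0.697 FPKM in Gpr35+/+ and 0.804, 0.111, 0.0563, 0.390 and 1.38 FPKM in Gpr35-/- (exact permutation p = 0.78).

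**Figure D5:**
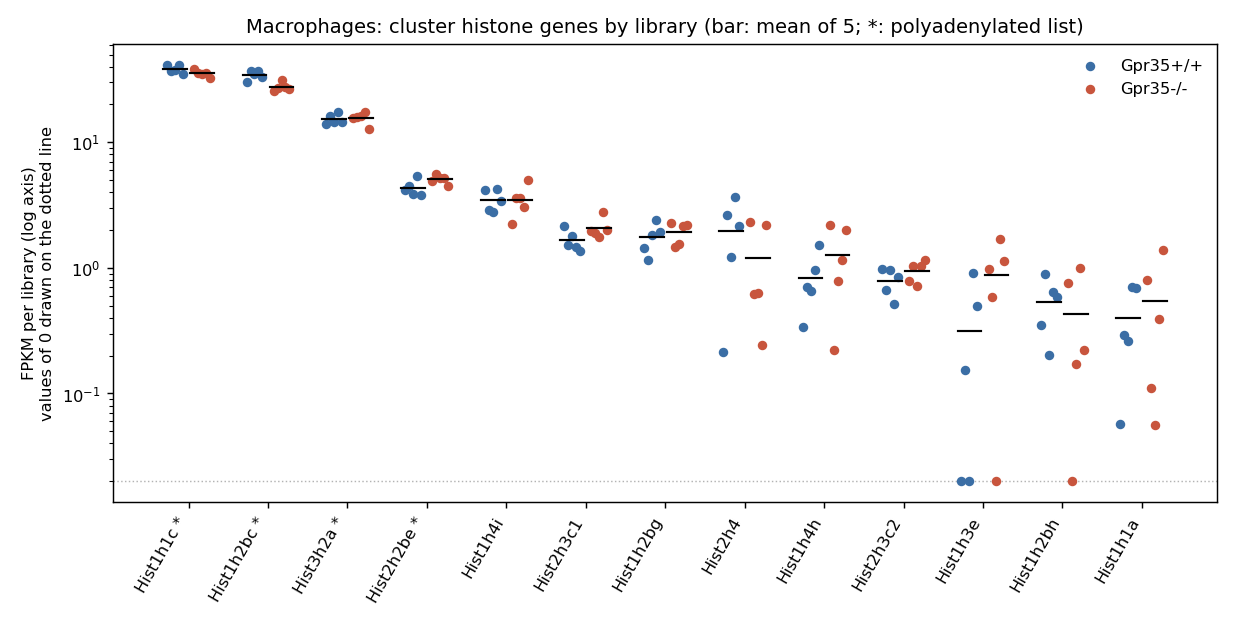
FPKM per library (vertical log axis) of the macrophage members described, 5 Gpr35+/+ (blue) and 5 Gpr35-/- libraries (red) for each gene, with bars at the genotype means and values of 0 on the dotted line. Hist1h2bc is slightly lower in Gpr35-/- (means 34.4 and 27.6 FPKM), and low members such as Hist2h4, Hist1h3e and Hist1h1a spread over a wide range in both genotypes.

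In all, 21 members were tested in macrophages and 0 passed, against 6 of 11437 genes (0.0525%). An unadjusted p under 0.05 was found for 1 member above and 2 below 0, while 10.5% of all genes had such a p (4.63% above and 5.88% below 0). The median change was 0.09 against 0.00 for all genes, with 14 estimates above 0, where 51.7% of all genes had these. By exact permutation, 2 of the 57 members above 0 had p under 0.05 (Hist1h2bc, lower, and Hist1h2ae, an H2A gene, higher, the latter named after its values were seen), against 8.42% of the 17583 rows above 0, 4.74% lower and 3.67% higher. No member was separated between genotypes, against 0.918% of genes lower and 1.04% higher. The 4 tested genes of the polyadenylated list had a median of -0.05 and the 17 others a median of 0.13.

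In macrophages the 11 genes of the polyadenylated list summed to 93.7 ± 5.50 FPKM in Gpr35+/+ and 85.0 ± 4.15 FPKM in Gpr35-/- (SD, n = 5 each). The ranges were 88.1 to 102 and 78.1 to 88.8 FPKM. The 57 genes outside the list summed to 13.8, 23.2, 20.3, 32.7 and 32.1 FPKM in Gpr35+/+ macrophage libraries 1 to 5 and 45.2, 12.9, 14.4, 29.4 and 56.6 FPKM in libraries 1 to 5 of Gpr35-/-. Libraries 1 and 5 of Gpr35-/- were the highest of the 10, and libraries 2 and 3 of Gpr35-/- were, with library 1 of Gpr35+/+, the 3 lowest. The Gpr35-/- mean was 130% of that of Gpr35+/+, and 104% without Gpr35-/- library 5. Rmrp had 24.0, 152, 153, 366 and 416 FPKM in Gpr35+/+ and 566, 7.32, 15.2, 299 and 557 FPKM in Gpr35-/-, again highest in Gpr35-/- libraries 1 and 5 and lowest in library 2, as the histone sum was. The sum of the 13 tailless RNAs had another order, with 2886 FPKM in Gpr35-/- library 1, 2212 FPKM in Gpr35+/+ library 5 and 1904 FPKM in Gpr35-/- library 5, and was lowest in Gpr35+/+ library 1 (300 FPKM). Of the 11 above 0 in macrophages, 3 were highest in Gpr35-/- library 1 and 2 in Gpr35-/- library 5. The S-phase sum was highest in Gpr35-/- library 5 (1344 FPKM) and Gpr35+/+ library 1 (1305 FPKM), and the latter had the lowest histone sum of its genotype. All 29 S-phase genes were tested, and 28 had estimates below 0 (median -0.09). All 22 G2 and M phase genes had estimates below 0 (median -0.17), where 48.3% of all genes had these. In both lists 0 passed and 0 had an unadjusted p under 0.05. Of the 17 tested members outside the polyadenylated list, 12 had estimates above 0. The part of these RNAs in the histone values was not tested.

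Gpr35+/+ macrophage libraries and Gpr35-/- libraries 1 and 5 also held ileum transcripts. Fabp6 had 17.6 to 73.1 FPKM in the 5 Gpr35+/+ libraries, 35.0 and 26.2 FPKM in Gpr35-/- libraries 1 and 5, and 0.0984, 0 and 0.115 FPKM in libraries 2, 3 and 4. This came to at most 0.344% of the mean ileum level of Fabp6. The same share of the highest ileum sum of the 57 histone genes is at most 0.391 FPKM, where the macrophage sums were 12.9 to 56.6 FPKM. This share rests on Fabp6 alone, and the part of ileum RNA in the macrophage histone values was not tested. With Gpr35-/- libraries 1 and 5 alone against the 5 Gpr35+/+ libraries, a comparison chosen after seeing the data, 0 members passed and 7 of 21 had an unadjusted p under 0.05, against 6.35% of all genes in that fit. The Gpr35-/- mean of the sum was then 208% of that of Gpr35+/+, but these libraries are also those with the highest sums of the 10, so the choice of libraries sets that direction.

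Whether the change differed between tissues was asked in 1 fit over all 20 libraries. Of 35 members tested, 0 passed, against 5 of 13079 genes (0.0382%). At an unadjusted p under 0.05 there were 7 members, 6 with an estimate above 0 (macrophage change minus ileum change) and Hist1h2bc with one below 0, where 6.48% of all genes had such a p (2.72% above and 3.75% below 0). Hist1h1e had the smallest p, with a difference of 1.33 on the log2 scale (standard error 0.36, adjusted p = 0.48 from limma), and for Hist1h3e the difference was 1.82 (standard error 0.57, adjusted p = 0.61 from limma). The median difference was 0.63 over the members and -0.01 over all genes. It was 0.35 without Gpr35+/+ ileum library 2, 0.39 without Gpr35-/- macrophage library 5 and at most 0.89 when any other library was left out.

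Genes that make, cut and hold histone mRNA showed no change that passed. Slbp, the stem-loop binding protein, had 19.1 to 24.6 FPKM in Gpr35+/+ and 18.9 to 22.6 FPKM in Gpr35-/- ileum, and Npat, the coactivator of histone gene transcription, had 0.741 to 0.992 and 0.805 to 0.939 FPKM. Of 20 such genes in the tables, 18 were tested in the ileum, with 10 estimates above and 8 below 0 and a median of 0.03, and 19 were tested in macrophages, with 12 above and 7 below and a median of 0.03. In both tissues 0 passed and 1 had an unadjusted p under 0.05, in macrophages Hinfp, which binds H4 promoters (6.94 ± 0.417 against 7.73 ± 0.468 FPKM, with a limma adjusted p of 0.39). Histone genes outside the clusters, most of which have poly(A) tails, were next. Of 10 tested in the ileum 0 passed and 0 had an unadjusted p under 0.05 (median 0.04), and H3f3b, an H3.3 gene, had 301 to 350 and 308 to 355 FPKM. Others varied between libraries, such as Cenpa, the centromeric H3, from 2.22 to 7.30 FPKM, and H2afx, whose mRNA can also end in a stem-loop, from 9.33 to 19.7 FPKM. In macrophages 0 of 11 passed and 1 had an unadjusted p under 0.05, namely H1f0, the H1.0 linker histone of non-dividing cells, with 38.8 ± 2.71 against 45.0 ± 2.17 FPKM (SD, n = 5 each, log2 change 0.21, standard error 0.05, adjusted p = 0.25 from limma). All 14 histone chaperone genes were tested in both tissues, and 0 passed and 0 had an unadjusted p under 0.05 in either.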

How the data were processed

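RNA was extracted with the RNeasy kit, and libraries were made by the authors with the TruSeq stranded mRNA kit and sequenced as 50-base single-end reads. The authors deposited FPKM (read counts scaled by transcript length and library size) per gene, 1 table per tissue, each with 23361 rows and 10 libraries. The build GRCm38 comes from the submitters' processing notes, and the aligner, counting tool and annotation were not given in the sources used here. A total of 27 ileum rows carrying a date as name were left out. Values were tested as log2(FPKM + 0.5), which understates changes of low genes, with limma 3.58.1 (trend, robust spread) in R 4.3.3, within each tissue, and in 1 fit over 20 libraries for the difference between tissues. A gene entered when 5 or more libraries reached 0.5 FPKM. Rows listed at 0 in 1 genotype and at 1 FPKM or more in every library of the other were treated as missing, and none was a histone gene. Adjustment was after Benjamini and Hochberg, at 0.05. Single genes were also given a two-sided exact permutation p over all 252 assignments of libraries, the smallest possible being 0.0079. Stem-loops, poly(A) signals and shared 50-base stretches were read from GENCODE M21 transcripts and promoters from RefSeq (GRCm38.p6). Only the limma fit was checked on simulated data, made of log2 values with normal noise. That check did not cover the filter, the recovery of reads or the permutation test. Python 3.11.15 was used for the other steps. Named members were the 8 highest per tissue, the 5 smallest p in each direction, any gene that passed or did not overlap, the largest gap between libraries of 1 genotype, and Hist1h1a, which the study shows. The members and gene lists were chosen with earlier results of these data known. Results were recomputed with different pseudocounts, filters, scalings and variance settings, with replicate number as a block, and with each library left out in turn. Depth is known only relative to library 1, so no counting interval is given.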

Additional observations from a re-analysis of the deposited data

Results flagged for a closer look

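In macrophages the Gpr35-/- values of Hist2h3c1, an H3 gene, were 1.97, 1.91, 1.77, 2.78 and 1.99 FPKM, and library 4 stood apart from the other 4, its gap to the next value (1.99 FPKM) being 0.782 of the range of the group, over the critical value of 0.71 for 5 samples. Chance alone gives such a gap in about 1 in 20 groups, and this was 1 of 70 groups of 5 libraries examined. Hist2h3c1 shares 100% of its 50-base stretches with another annotated record.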

How the results depend on the processing

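The count of members that passed was 0 under all other alternatives in both tissues and for the difference between tissues, with 2 exceptions. In the ileum it was 0 to 1 when each library was left out, the 1 being Hist1h4c without Gpr35+/+ replicate 4, and in macrophages it was 1 (Hist1h2bc) with weights per library. The log2 ratio of summed FPKM in the ileum was -0.15, and it moved to -1.10 without genes with polyadenylated forms and to -0.48 as a median over members of log2(FPKM + 0.5). In macrophages it was -0.02, and it moved to 0.38 without genes with polyadenylated forms and to 0.17 with Gpr35-/- replicates 1 and 5 alone, an alternative chosen after seeing the data. The number of members with an exact permutation p under 0.05 was 8 in the ileum and 2 to 18 when each library was left out. Of these leave-outs, Gpr35+/+ replicates 2 and 5 gave 3 each, Gpr35+/+ replicate 4 gave 18, and Gpr35-/- replicates 1 to 5 gave 4, 2, 2, 4 and 2. In macrophages the number was 2, and it was 1 with a pseudocount of 0.1, 4 with quantile normalization and 1 to 5 when each library was left out (1 without Gpr35+/+ replicate 3 or Gpr35-/- replicate 4, 5 without Gpr35-/- replicate 3). Without 1 library of 5, the smallest p such a test can give is larger. The cause of these shifts was not tested. With the replicate number as a block, 0 members passed in either tissue and 6 in the ileum and 4 in macrophages had an unadjusted p under 0.05. Nothing in the labels says whether the numbers pair the libraries. The deviations of same-numbered libraries from their group means correlated at -0.422 to 0.00839 in the ileum and -0.157 to 0.269 in macrophages. Such correlations cannot show whether same-numbered libraries shared a litter or a day. In the ileum the signs of 8 named members below 0 (Hist1h1a, Hist1h1e, Hist1h3e, Hist1h4c, Hist1h4d, Hist1h4h, Hist2h4 and Hist3h2a) held in every alternative. The signs of Hist2h2be, Hist2h3c2 and Hist3h2ba, all above 0, held in every alternative too. Those of Hist1h2bc, Hist1h4i, Hist1h1c, Hist1h4k and Hist2h3c1 turned in 8, 6, 3, 1 and 1 of 21. Few reads per member and unknown read totals limit single genes.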
